A study of Mus musculus with 2 samples.

Results

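Mitochondrial ribosomal proteins, taken as every gene with an Mrpl or Mrps symbol and a number after it (pseudogenes left out), numbered 78 among 23248 genes listed in splenic regulatory T (Treg) cells of healthy and leukemic mice. By symbol, 49 belonged to the large subunit (Mrpl) and 29 to the small subunit (Mrps), and all 78 were listed in both libraries. Both groups were mice aged 6 to 8 weeks with the allele Foxp3tm3(DTR/GFP)Ayr/J in the strain B6.129(Cg), so healthy and leukemic hosts alike carried the Foxp3 reporter allele with diphtheria toxin receptor (DTR) and green fluorescent protein (GFP). The leukemia group had received 800000 leukemia cells without irradiation in a model with a survival time given as 30 to 40 days, and was sampled on day 18, while the healthy group had received phosphate-buffered saline. From each group CD4+ FOXP3-GFP+ spleen cells were sorted and sequenced as 1 library, so that no difference below has a replicate check. The sources used here do not say which acute myeloid leukemia was transplanted or whether mice were pooled.

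The mitochondrial ribosome translates the few messenger RNAs that mitochondrial DNA encodes, all of them for subunits of the respiratory chain and ATP synthase. Its RNA comes from mitochondrial DNA, but all of its proteins are encoded in the nucleus, made in the cytosol and imported. The small subunit reads the messenger, and the large subunit joins amino acids and passes the chain to the inner membrane. Some of the proteins descend from bacterial ribosomal proteins and others are found only in mitochondrial ribosomes. In T cells, mitochondrial translation is needed to build up oxidative capacity after activation.

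Nearly all members had higher values in the leukemia library, by a modest amount. Of 78 members, 72 had a log2 ratio above 0, against 52.8% of the 13717 genes that reached 1 FPKM in at least 1 library. The ratio is log2((FPKM leukemia + 1) / (FPKM healthy + 1)), where FPKM is the number of fragments scaled by transcript length and library size, and it understates differences of genes with low values. The median ratio of the members was 0.39, with quartiles of 0.22 and 0.55 and a range of -0.15 to 1.39, while the median of all genes was 0.02. Members at a difference of at least 2-fold, which is a size and no test, were 4, all higher in leukemia (5.13% of members against 6.55% of all genes). None was at least 2-fold lower, where all genes had 1.95%. The share past 2-fold was thus near the background, while the share above 0, 92.3%, was larger than the background's.

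The exact 95% interval of the read ratio, which covers counting error only and compares these libraries rather than the conditions, lay wholly above 1 for 58 of 78 members. In all genes this held for 29.0%. An interval wholly below 1 was found for 0 members, against 23.5% of all genes, and 20 intervals included 1. Among genes at 5 FPKM or more, where reads are more plentiful, 33.4% of intervals lay above 1 and 28.3% below. Summed over the members, 22294 reads of the healthy and 28767 of the leukemia library gave a ratio of 1.30, with an interval of 1.27 to 1.32. In FPKM the sums were 2433 and 3208, or 0.452% and 0.565% of all FPKM.

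**Figure D1:**
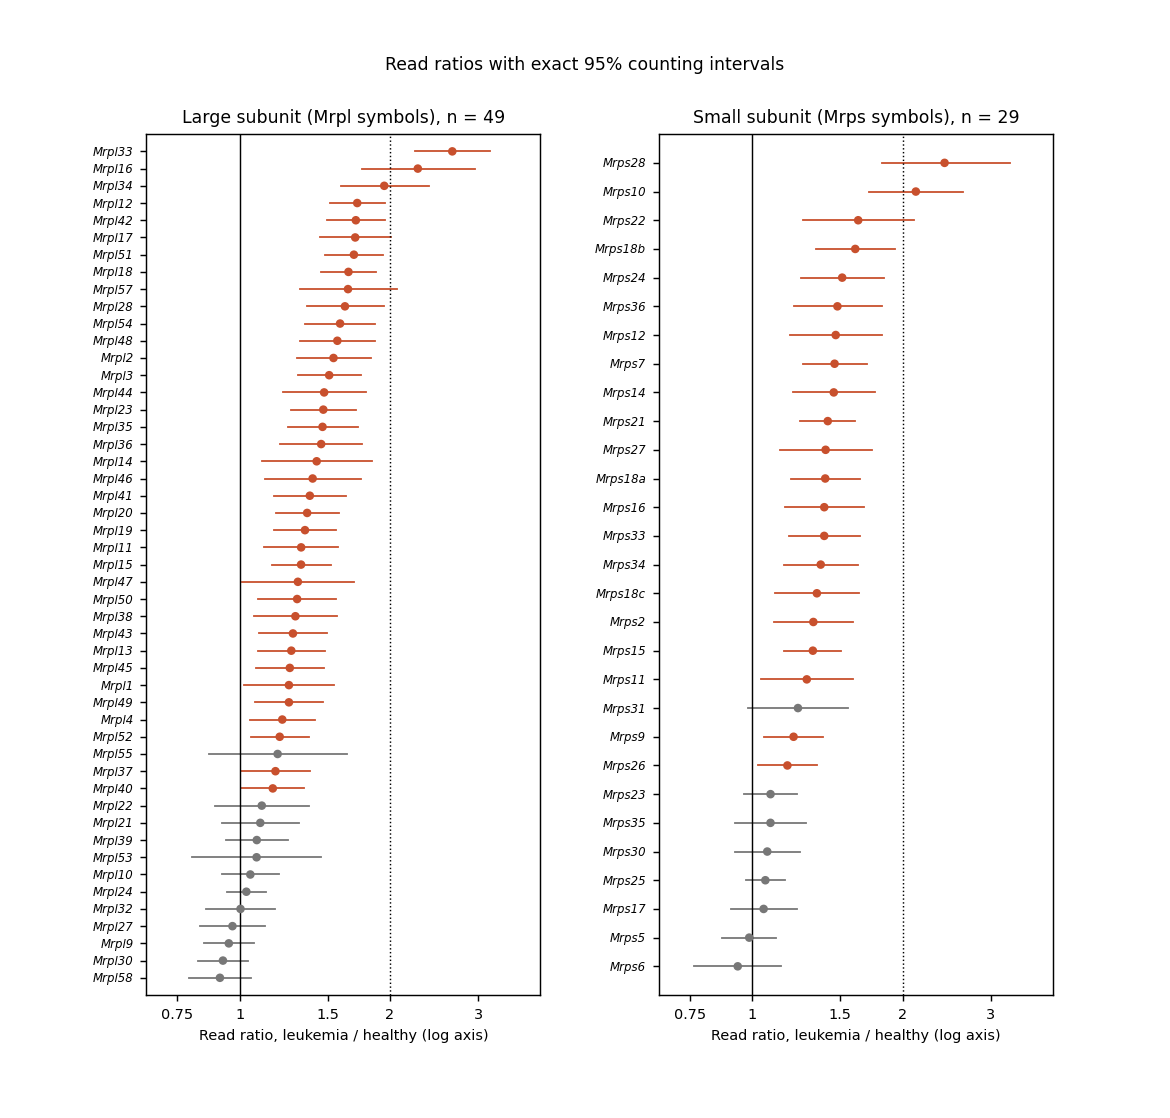
Read ratio of each member, leukemia over healthy and each divided by its library's total, on a log axis, with exact 95% counting intervals as lines. Coloured members have an interval above 1 (37 of 49 in the large and 21 of 29 in the small subunit), grey members an interval that includes 1, and the dotted line marks 2-fold.

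Other RNA differed between the same libraries. Foxp3, which encodes the lineage factor of Treg cells, was at 104 FPKM in healthy mice and 62.7 FPKM in leukemia, and Cd4 was at 267 and 184 FPKM, so the gate's transcripts were present in both. The 14 genes of a Treg identity list had a median ratio of -0.53, with 11 intervals below 1. T cell receptor signalling genes had one of -0.42, with 16 of 18 intervals below 1. Of 16 progenitor and granule genes 15 were at least 2-fold higher, with summed levels of 58.7 and 2271 FPKM. In that list Mpo, encoding myeloperoxidase, stood at 0.83 and 357 FPKM, and Ms4a3 was listed at 0 in healthy and 17.7 FPKM in leukemia. Cell division genes, Mki67 among them (14.7 and 34.4 FPKM), had 21 of 24 members at least 2-fold higher and sums of 465 and 1113 FPKM. Macrophage genes had 11 of 12 intervals below 1 and sums of 1017 and 572 FPKM. B cell, plasma cell, erythroid and CD8 T and NK cell lists had sums of 21.6 and 33.2, 72.4 and 100.05, 164 and 161, and 48.8 and 40.0 FPKM. The nearly level erythroid sums held opposed genes, with log2 ratios from -0.60 to 1.26 over 7 genes at 1 FPKM or more. Of 8 B cell genes, 4 reached 1 FPKM. Of the 7 plasma cell genes, 5 were matched. The part of these cells in the members' difference was not tested, and in bulk RNA fewer cells of a type cannot be told apart from less RNA per cell.

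The members differed widely in level. In healthy Treg cells they ran from 3.85 FPKM for Mrpl17 to 120 FPKM for Mrpl52, with a median of 25.9 FPKM. The leukemia library had the same extremes, Mrpl17 at 6.55 and Mrpl52 at 144 FPKM, and a median of 34.7 FPKM. Mrpl17 encodes a large-subunit protein with a bacterial counterpart, and Mrpl52 one found only in mitochondrial ribosomes. Among the 13717 genes, 29.7% lay below Mrpl17 and 95.9% below Mrpl52 in healthy cells. The order was nearly the same in both libraries: across the 78 members log2 FPKM had a Pearson r of 0.95 and a Spearman rho of 0.94, as a description of genes that share 2 libraries. Longer transcripts had lower FPKM (rho -0.66), whereas length and log2 ratio were only weakly related (rho -0.14). Mrpl17, lowest in FPKM, had the longest transcript length of the members, 6712 bases, and was not lowest in reads (234 and 397).

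**Figure D2:**
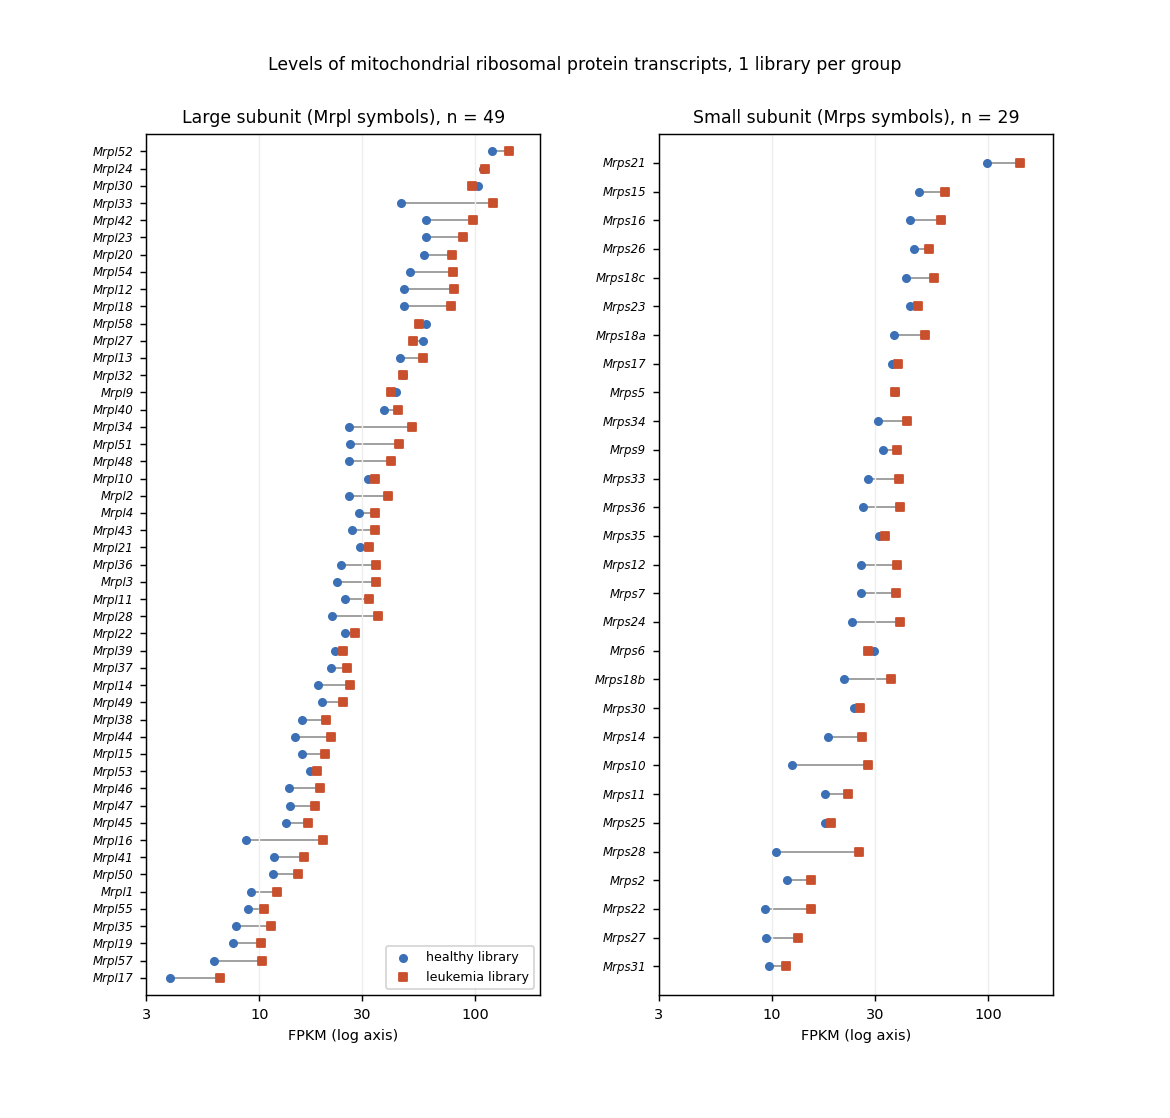
FPKM of every member in the healthy (circles) and leukemia (squares) library, on a log axis, ordered by mean level within each subunit. Squares lie to the right of circles for 72 of 78 members, and levels run from 3.85 FPKM (Mrpl17, healthy) to 144 FPKM (Mrpl52, leukemia).

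Medians differed little by level. The 26 members with the lowest mean level had a median ratio of 0.37, the 26 in the middle 0.45 and the 26 highest 0.36. All of the lowest 26 lay above 0, as did 25 of the middle and 21 of the highest. Ratios of summed reads were 1.36 (1.31 to 1.41) for the lowest, 1.31 (1.27 to 1.36) for the middle and 1.25 (1.21 to 1.28) for the highest. The intervals of the lowest and the highest do not overlap. Across members the log2 ratio had a rho of -0.08 with mean level and -0.23 with healthy FPKM. Both levels contain the values compared, so these figures are a description.

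Large and small subunits did not separate. The 49 Mrpl genes had a median ratio of 0.36 and the 29 Mrps genes 0.44, a difference in medians of -0.08 against quartiles of 0.23 to 0.58 and 0.21 to 0.53. Above 0 were 45 of 49 and 27 of 29, against 52.8% of all genes. At least 2-fold higher were 2 genes of each subunit, 4.08% of large and 6.90% of small. Both shares are near the 6.55% of all genes. Summed reads put the subunits in the opposite order, with ratios of 1.31 (1.28 to 1.34) for large and 1.27 (1.23 to 1.30) for small, and these intervals overlap. In summed FPKM the large subunit stood at 1586 and 2087 and the small at 848 and 1121, so that large over small was 1.87 in healthy and 1.86 in leukemic mice. Mean level per gene was 32.4 and 42.6 FPKM for large and 29.2 and 38.6 FPKM for small.

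Symbols and structures disagree for 3 Mrps genes. Mrps18a and Mrps30 are placed by structures in the large subunit, and Mrps36 is now described as a component of 2-oxoglutarate dehydrogenase, an enzyme of the citric acid cycle. Sorted that way, 51 large-subunit genes had a median of 0.36 and 26 small-subunit genes one of 0.43. Mrps30 (NCBI Gene 59054) stood at 23.96 FPKM in healthy mice and 25.7 FPKM in leukemia, a read ratio of 1.07 (0.922 to 1.25). Mrps36 (66128) stood at 26.5 and 39.2 FPKM, a read ratio of 1.48 (1.21 to 1.82). By log2 ratio (0.55) this non-ribosomal gene ranked 21 from the top among the 78 members.

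Mrps18a, Mrps18b and Mrps18c are 3 paralogs of a single bacterial small-subunit protein and occupy different places in the mitochondrial ribosome, with Mrps18c counted here as the counterpart. Mrps18a (68565) was at 36.6 FPKM in healthy mice and 51.2 FPKM in leukemia (log2 ratio 0.47). Mrps18b (66973) was at 21.6 and 35.6 FPKM (0.69), and Mrps18c (68735) at 41.9 and 56.4 FPKM (0.42). Their read ratios of 1.40 (1.20 to 1.64), 1.61 (1.34 to 1.93) and 1.35 (1.11 to 1.64) had intervals that overlap each other and lie above 1. In both libraries Mrps18b had the lowest level of these paralogs.

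By origin, 46 members were counted as having a bacterial counterpart and 32 as having none, the latter with Mrps18a, Mrps18b and the non-ribosomal Mrps36 among them. Their median ratios were 0.41 and 0.35, with 41 of 46 and 31 of 32 above 0. All 4 genes past 2-fold were among the 46 with a counterpart, 8.70% of them and 0% of the other 32, against 6.55% of all genes. With so few calls this split is a description and was not tested. The ratio of summed reads was 1.31 (1.28 to 1.34) for the first and 1.28 (1.24 to 1.31) for the second, which overlap. Counterpart genes also held the lower end of the range, at -0.15, where the lowest of the other 32 was at -0.11.

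The member with the highest ratio was Mrpl33 (66845), which encodes a very small protein of the large subunit with a bacterial counterpart. It stood at 45.4 FPKM on 185 reads in healthy and 121 FPKM on 491 reads in leukemia, a read ratio of 2.66 (2.24 to 3.17). Mrps28 (66230), a small-subunit protein related to part of bacterial S1, followed at 10.5 and 25.4 FPKM on 67 and 162 reads, a read ratio of 2.43 (1.81 to 3.28). Mrps10 (64657), in the head of the small subunit, was at 12.4 and 27.9 FPKM (log2 ratio 1.11). Its RSEM-weighted transcript length was shorter in leukemia, 1095 against 1164 bases, and its read ratio was 2.13 (1.72 to 2.65). Mrpl16 (94063), which lies near the tRNA-binding centre of the large subunit, was at 8.70 and 19.8 FPKM (log2 ratio 1.10, read ratio 2.27, interval 1.76 to 2.96). Just under that size was Mrpl34 (94065), at 26.1 and 50.8 FPKM (0.93). Intervals of Mrps28, Mrps10 and Mrpl16 include 2, and that of Mrpl33 does not.

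Next in order were 3 genes of the large subunit with more reads and closer intervals. Mrpl12 (56282) encodes a protein of the stalk that recruits translation factors and has also been described as a partner of the mitochondrial RNA polymerase. It was at 46.6 FPKM in healthy mice and 80.0 FPKM in leukemia, a read ratio of 1.72 (1.52 to 1.95). Mrpl51 (66493), specific to mitochondrial ribosomes, was at 26.3 and 44.5 FPKM, a read ratio of 1.69 (1.48 to 1.94). Mrpl42 (67270), likewise specific, was at 59.0 and 97.9 FPKM, a read ratio of 1.71 (1.49 to 1.95). These 3 intervals lie between 1 and 2.

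Members with values that differed little between libraries were also found in both subunits. Mrpl27 (94064), whose bacterial counterpart sits beside the peptidyl transferase centre, had the lowest ratio, with 57.2 FPKM in healthy mice and 51.3 FPKM in leukemia (log2 ratio -0.15). Its weighted length was 723 and 775 bases, and the read ratio of 0.967 (0.832 to 1.12) was nearer 1 than the FPKM ratio of 0.897. Mrpl58 (68572), a peptidyl-tRNA hydrolase that rescues stalled ribosomes, stood at 59.3 and 55 FPKM, a read ratio of 0.913 (0.791 to 1.05). Mrpl30 (107734), with a bacterial counterpart, was at 103 and 96.5 FPKM and gave a read ratio of 0.926 (0.825 to 1.04). Mrps6 (121022), of the small subunit, was at 29.8 and 27.8 FPKM and shares exon bases with Slc5a3, so its estimated counts of 206 and 192 reads are uncertain. Mrpl9 (78523) was at 42.9 and 40.8 FPKM and Mrps5 (77721), near the entry of the messenger channel, at 37.2 and 37.0 FPKM. Mrpl32 (75398), which is trimmed by a mitochondrial protease before it joins the ribosome, was level at 46.2 and 46.3 FPKM. Mrpl24 (67707), near the exit of the peptide tunnel, was at 109 and 111 FPKM on 952 and 978 reads, a read ratio of 1.03 (0.942 to 1.13). These members held 192 or more reads in each library, and the interval of Mrpl24 ended below 1.31, the ratio of the median member. Mrpl27, Mrpl9 and Mrpl24 also share exon bases with coding genes, Eme1, Oaz3 and Rrnad1, which lie on the opposite strand. Mrpl24 and Mrpl32 changed sign when FPKM was rescaled to TPM.

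Abundant members were mixed. Mrpl52 (68836) had a read ratio of 1.20 (1.05 to 1.37), lower than that of most members, and Mrpl24 and Mrpl30, the other two of the 3 most abundant Mrpl genes, had intervals that include 1. Among Mrps genes the most abundant were Mrps21 (66292) at 98.6 and 141 FPKM, Mrps15 (66407) at 48.0 and 63.4 FPKM and Mrps16 (66242) at 43.8 and 60.9 FPKM. All 3 encode counterparts of bacterial proteins of the small subunit. Their read ratios of 1.42 (1.25 to 1.61), 1.32 (1.16 to 1.51) and 1.39 (1.16 to 1.67) had intervals above 1. Mrps31 (57312), the Mrps gene with the lowest mean level, was at 9.72 and 11.6 FPKM on 139 and 171 reads, and its interval of 0.981 to 1.56 includes 1. Mrpl17 (27397), lowest of the Mrpl genes, had 234 and 397 reads and a read ratio of 1.70 (1.45 to 2.01).

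Further members were named for their roles. Mrps12 (24030), the counterpart of a bacterial protein that governs decoding accuracy, was at 25.9 FPKM in healthy mice and 37.8 FPKM in leukemia, a read ratio of 1.47 (1.19 to 1.82). Mrpl44 (69163), which has the fold of a double-strand RNA nuclease, was at 14.6 and 21.6 FPKM, a read ratio of 1.48 (1.22 to 1.79). Mrps22 (64655), specific to mitochondrial ribosomes and mutated in an inherited respiratory chain disease, was at 9.29 and 15.1 FPKM, a read ratio of 1.63 (1.26 to 2.11). All 3 lay above the median of the members.

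The 48 members that the naming rule left out had log2 ratios of 0.08 to 0.71, a range bounded by that rule, and 38 had an interval above 1. They stood between 6.17 and 59.1 FPKM in healthy and between 10.1 and 87.3 FPKM in leukemia. Their lowest ratio was that of Mrps25, at 17.7 FPKM in healthy mice and 18.8 FPKM in leukemia, with an interval of 0.972 to 1.16. The highest were those of Mrpl18, of the large subunit, at 46.9 and 77.3 FPKM, and of Mrps24, at 23.5 and 39.1 FPKM. Mrps24 had a weighted length 0.913 times as long in leukemia, and its read ratio was 1.51 (1.25 to 1.84).

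Values also differed within single places of the ribosome, in genes picked by position after their values were seen. At the stalk, Mrpl12 had a log2 ratio of 0.77, Mrpl11 at its base 0.36 and Mrpl10, which anchors it, 0.10. Mrpl10 stood at 31.9 FPKM in healthy mice and 34.2 FPKM in leukemia, with an interval of the read ratio of 0.921 to 1.20 that does not reach the 1.52 at which that of Mrpl12 begins. Around the exit of the peptide tunnel, Mrpl23 had a log2 ratio of 0.56, Mrpl45, which ties the ribosome to the inner membrane, 0.31, Mrpl22 0.15 and Mrpl24 0.03. The interval of Mrpl23, 1.27 to 1.71, lay above that of Mrpl24. Since these genes were picked for their values, nothing about structural neighbours in general follows.

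5 proteins of the mitochondrial ribosome carry other symbols and were not members. Gadd45gip1, of the large subunit, was at 44.4 FPKM in healthy mice and 57.7 FPKM in leukemia, a read ratio of 1.30 (1.18 to 1.44). In the small subunit, Chchd1 stood at 47.5 and 58.6 FPKM, Aurkaip1 at 53.9 and 64.3 FPKM, Ptcd3 at 21.9 and 24.5 FPKM and Dap3, a GTP-binding protein, at 60.1 and 63.2 FPKM. All 5 lay above 0, with a median log2 ratio of 0.25, and the intervals of Ptcd3 and Dap3 included 1.

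Other genes of mitochondrial translation had smaller medians than the 0.39 of the members. For the counts below, 52.8% of all genes lay above 0, and 6.55% were at least 2-fold higher. Of 27 genes counted here as assembly factors, with Mpv17 (-0.19) among them, 20 lay above 0 with a median of 0.16 and none at 2-fold. They ran from Ddx28, an RNA helicase, at 5.33 FPKM in healthy mice and 8.82 FPKM in leukemia (0.63), to Mettl17 at 18.5 and 14.7 FPKM (-0.31). Of 13 translation factors matched, 11 lay above 0, with a median of 0.21 and none at 2-fold. Their highest was the release factor gene Mtrf1 (2.16 and 4.52 FPKM, 0.80) and their lowest the initiation factor gene Mtif2 (23.7 and 22.5 FPKM, -0.07). Among 20 genes that charge mitochondrial tRNAs, 16 lay above 0 with a median of 0.17, from Sars2 (6.65 and 14.6 FPKM, 1.02), the 1 member past 2-fold, to Wars2 (3.09 and 2.50 FPKM, -0.22). Genes of mitochondrial transcription and RNA handling had 14 of 20 above 0 and a median of 0.16, from the nuclease gene Mgme1 (2.32 and 5.25 FPKM, 0.91) to Pnpt1 (21.9 and 20.4 FPKM, -0.10). Import and proteostasis genes had the highest median of these 5 lists, with 18 of 20 above 0 and a median of 0.35. They ran from Timm10, an import chaperone of the intermembrane space (9.52 and 19.95 FPKM, 0.99), to Clpx (13 and 11.2 FPKM, -0.19). Read ratio intervals above 1 were held by 25.9% of assembly factors, near the 29.0% of all genes. For translation factors the share was 46.2%, and for tRNA charging and for RNA handling 35% each. Import and proteostasis genes had 75%, close to the 74.4% of the members. Whether these lists differ from the members was not tested, since each group is 1 library.

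Respiratory chain and ATP synthase genes of the nucleus, partners of the proteins that this ribosome makes, had a median of 0.41 over 83 genes at 1 FPKM or more. Of these, 78 lay above 0, 74 intervals were above 1 and 2 below. At least 2-fold higher were 5, or 6.02%, against 6.55% of all genes. Among the 5 was Ndufb4 (9.31 and 58.3 FPKM), and among the 2 below was Ndufb4c (69.98 and 46.3 FPKM). Neither had whole counts, and whether they share reads was not tested. Summed reads of the respiratory chain and ATP synthase list had a ratio of 1.31 (1.30 to 1.32), close to the 1.30 of the members. Cytosolic ribosomal proteins had a smaller median of 0.12 over 76 genes, with 62 above 0 and none at 2-fold. With many more reads per gene, 50 of their intervals (65.8%) lay above 1 and 9 below. Their summed reads gave 1.07 (1.07 to 1.07). Ribosome biogenesis genes had a median of 0.49, with all 20 above 0. The messenger RNAs of mitochondrial DNA matched 0 symbols in the tables, so the products of the mitochondrial ribosome were not analysed here.

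**Figure D3:**
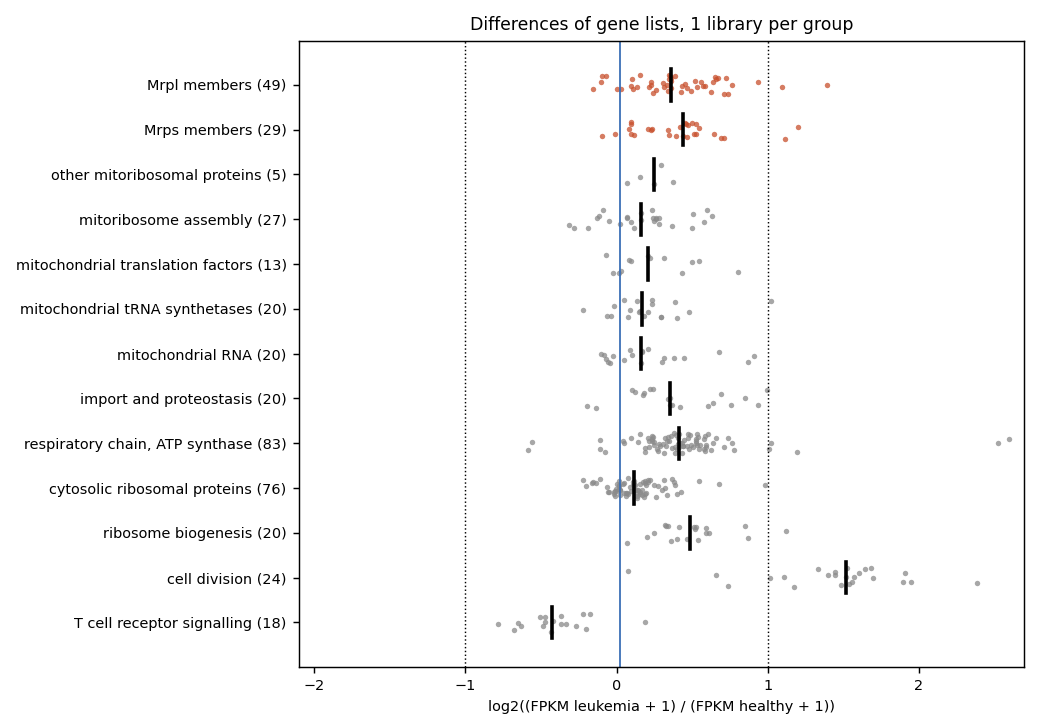
log2 ratio of each gene by list, with the number of genes at 1 FPKM or more in brackets; black bars are list medians, the blue line is the median of all genes (0.02) and dotted lines mark 2-fold. Mrpl and Mrps members (medians 0.36 and 0.44) lie beside the respiratory chain genes (0.41) and right of the cytosolic ribosomal proteins (0.12), and 1 gene above 2.6, Cox6b2, is drawn at the edge.

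Factors described as regulators of nuclear genes for mitochondria were mixed. Of 9 at 1 FPKM or more, 5 (55.6%) had an interval of the read ratio above 1, against 29.0% of all genes. An interval below 1 was found for 2 (22.2%), near the 23.5% of all genes. None was at 2-fold, where all genes had 6.55% higher and 1.95% lower. Highest was Esrra, an orphan nuclear receptor, at 13.7 FPKM in healthy mice and 17.8 FPKM in leukemia, a read ratio of 1.30 (1.11 to 1.53). Pprc1, a coactivator, had 1.23 (1.09 to 1.39), Myc 1.15 (1.06 to 1.25), Gabpb1, a subunit of an ETS factor, 1.14 (1.0045 to 1.30), and Yy1 1.14 (1.05 to 1.24). Intervals that include 1 were those of Nrf1 (nuclear respiratory factor 1), at 22.5 and 22.98 FPKM (0.920 to 1.16), and Gabpa, the DNA-binding partner of Gabpb1, at 14.6 and 13.3 FPKM (0.826 to 1.04). Below 1 were Sp1, at 20.3 and 16 FPKM, with 0.788 (0.729 to 0.853), and the coactivator gene Ppargc1b, with 0.798 (0.642 to 0.990). Its relative Ppargc1a had 5.82 and 5.54 reads, too few to compare.

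Promoter sequences in the RefSeq table (GRCm38.p6, from 250 bases before to 50 after each start) were held for 69 members, as 75 sequences. Mrpl13, Mrpl15, Mrpl19, Mrpl38, Mrpl4, Mrpl54, Mrps28, Mrps34 and Mrps35 had none. The 250 bases before the start are shown for the members with the highest and the lowest log2 ratio, with letters matching a searched motif in capitals. Mrpl33 lies at chr5:31613701-31613950 and Mrpl27 at chr11:94653541-94653790, both on the + strand.
Mrpl33: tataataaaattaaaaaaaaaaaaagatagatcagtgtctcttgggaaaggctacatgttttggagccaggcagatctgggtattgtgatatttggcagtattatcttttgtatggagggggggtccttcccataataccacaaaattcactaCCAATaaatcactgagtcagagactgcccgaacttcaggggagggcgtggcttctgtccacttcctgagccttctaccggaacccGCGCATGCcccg
Mrpl27: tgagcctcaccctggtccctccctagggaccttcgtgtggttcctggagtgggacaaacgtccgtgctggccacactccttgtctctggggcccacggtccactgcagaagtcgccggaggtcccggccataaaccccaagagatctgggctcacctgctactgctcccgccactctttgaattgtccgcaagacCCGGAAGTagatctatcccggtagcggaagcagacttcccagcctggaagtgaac
In Mrpl33 the capitals mark CCAAT at 97 bases and an NRF1 match at 12 bases before the start, and an ETS match begins 3 bases before the start and runs past the part shown. In Mrpl27 they mark an ETS match 55 bases before the start. The highest and the lowest member thus both hold ETS letters. The GC content of these stretches was 45.2% and 60.4%.

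The motifs were searched on both strands, and none contains another. ETS letters CCGGAAGT were found in 16% of member promoters against 3.89% of all 32851 promoters and 7.86% of those of genes at 1 FPKM or more. YY1 letters AAGATGGC were in 16%, against 2.75% and 4.43%, and NRF1 letters GCATGCGC in 10.7%, against 2.71% and 4.83%. The E-box CACGTG was in 9.33% against 7.15% and 9.73%. SP1 letters GGGCGG were in 52% against 35.7% and 58.4%, CCAAT in 40% against 37.4% and 38.1%, and TATAAA in 6.67% against 13.6% and 7.86%. Median log2 ratios were 0.51 for the 12 members with ETS letters and 0.36 for the 57 without, 0.48 and 0.36 for YY1 (12 and 57), and 0.13 and 0.43 for NRF1 (8 and 61). For TATAAA they were 0.63 and 0.38 (5 and 64) and for SP1 0.47 and 0.35 (34 and 35). The E-box had 0.43 and 0.38 (5 and 64) and CCAAT 0.43 and 0.39 (27 and 42). A match is a description of letters, and no binding was measured.

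Many members lie head to head with another gene. In the GENCODE M21 annotation (GRCm38), 18 of 78 members, 23.1%, had a coding gene that starts on the opposite strand within 1000 bases upstream without overlap, against 10.5% of 11470 coding genes at 1 FPKM or more. Of these neighbours 17 were at 1 FPKM or more, 11 of them above 0, with a median log2 ratio of 0.07. The 18 members themselves had a median of 0.43, and the other 60 members 0.37. Mrps12 and Sars2, the mitochondrial seryl-tRNA synthetase gene, start 172 bases apart, with log2 ratios of 0.53 and 1.02. Mrpl51 and the condensin gene Ncapd2, 100 bases apart, had 0.73 and 1.37, while Mrpl54 and Apba3, 26 bases apart, had 0.66 and 0.16. Mrpl46 and Mrps11 are members of both subunits that share exon bases on opposite strands, with log2 ratios of 0.46 and 0.34. The last 3 pairs were picked after their values were seen.

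Shared bases limit some of these values. In that annotation 33 members share exon bases with another gene, 28 of them with a gene on the opposite strand and 23 with a coding gene. RSEM, the counting program, divides reads that match several genes, and 24 members had an estimated count that was not whole in at least 1 library. RefSeq names 6 pseudogenes of members, and 0 of them were listed in either library. Whether counting used the strand is not known from the labels. Mrpl16, Mrps10 and Mrps28 shared no exon bases, and Mrpl33 shared none with a coding gene. Of the members named for low ratios, Mrpl27, Mrpl9, Mrpl24 and Mrps6 shared exon bases with a coding gene.

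How high the members stand depends on the scale. When the median of the T cell receptor signalling list was set to 0, all 78 members lay above 0 with a median of 0.81. At least 2-fold higher were then 18 members, 23.1% of them, against 14.01% of all genes. On the deposited scale these shares were 5.13% and 6.55%. All genes then had a median of 0.45, and 1922 higher against 105 lower calls where the deposited scale gave 898 against 267. Relative to all genes the members' median was higher by 0.37 on the deposited scale. Centring subtracts the same constant from every gene, so this difference stays at 0.37 by construction. Over the other scalings and filters listed with the limits, that difference ranged from 0.36 to 0.39. Scalings that multiply a whole library by a constant can hardly change it, so this range is no independent check.

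**Figure D4:**
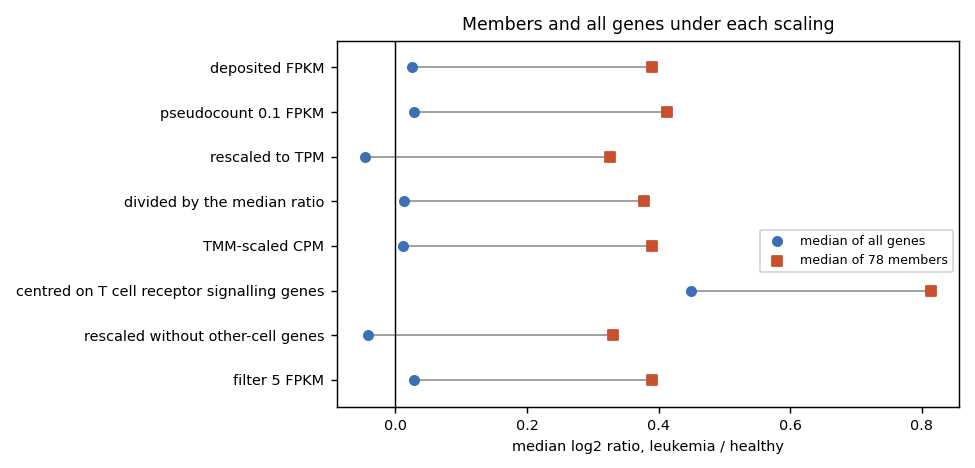
Median log2 ratio of the 78 members (squares) and of all genes (circles) under each scaling, pseudocount or filter. When centred on T cell receptor signalling genes they lie at 0.81 and 0.45, and on deposited FPKM at 0.39 and 0.02. Centring shifts every gene by the same constant, so both medians move together by construction. Rescaled to TPM, 70 instead of 72 members lie above 0.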

How the data were processed

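RNA was sequenced from 2 libraries of sorted splenic Treg cells, 1 healthy and 1 leukemia, grouped by the disease state in the labels. The tools named for the authors' processing are Bowtie2 2.2.5 and RSEM, per the submitters' processing notes. For RSEM's version, the build and the annotation, nothing is given in the sources used here. The deposited tables hold, per the file headers, an estimated count (expected count) and FPKM for each NCBI Gene ID. Deposited FPKM carries the authors' scaling per kilobase and per 1000000 fragments. The libraries held 8929601 and 8897162 estimated reads.

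Of 23248 IDs, 21713 matched a RefSeq symbol (GRCm38.p6) by ID and 22 by accession. The measure was log2 of FPKM plus 1, leukemia minus healthy, over genes that reached 1 FPKM in at least 1 library, with a call at 2-fold. No test was possible with 1 library per group. Exact Clopper-Pearson 95% intervals used counts rounded to whole numbers (scipy 1.17.1) and were run on simulated counts. These counts held counting error only, for which the interval is exact by design, so the run checks the calculation alone. It does not cover reads divided between genes or variation between mice. With 100 reads in each library the interval runs from 0.753 to 1.34, and with 1000 from 0.918 to 1.10. Alternatives included TMM scaling (edgeR 4.0.16). The text names members past 2-fold, the 8 highest and 8 lowest at 10 FPKM or more, the 3 most and the 1 least abundant per subunit, and members fixed for their roles; of other lists, the highest and lowest. Members and lists were chosen with earlier results of these data known. Protein sequences were not used here.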

Additional observations from a re-analysis of the deposited data

How the results depend on the processing

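The 4 members at least 2-fold higher, the 0 lower and the small gap between subunit medians held with a pseudocount of 0.1 FPKM, TPM, the median ratio, TMM-scaled CPM, rescaling without other-cell genes, no filter or a filter of 5 FPKM. The 4 calls also had intervals above 1. Rescaling moved the medians of all and large-subunit members to 0.33 and 0.30 as TPM and to 0.33 and 0.30 without other-cell genes. Members' share of the total, leukemia over healthy, was 1.25 in FPKM and 1.30 in TMM-scaled CPM, which is not divided by length. Centring on T cell receptor signalling genes gave 18 members at least 2-fold higher (23.1%, against 14.01% of all genes). Medians were then 0.81 for all, 0.79 for large and 0.87 for small subunit members. Centring subtracts 1 constant from every gene. Of 30 named members it turned 6 from below to above 0 (Mrpl27, Mrpl30, Mrpl58, Mrpl9, Mrps5 and Mrps6) and added 7 calls. TPM and rescaling without other-cell genes turned Mrpl24 and Mrpl32 below 0, and the median ratio and TMM Mrpl32. Over all genes the lower calls were 267 on deposited FPKM, 493 with a pseudocount of 0.1 FPKM, 414 as TPM, 412 without other-cell genes and 105 when centred, and 135 with the filter of 5 FPKM; the higher calls were 898, 1245, 961, 966, 1922 and 590. Counting members by structure changed neither subunit's side of 0. Members held 67 to 1031 reads per library; with 100 reads in each, a difference under 1.34-fold was not detectable, and with 1000 one under 1.10-fold. No paired analysis was possible because each group has 1 library.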
